A study of Homo sapiens with 6 samples.

Results

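The genes described here are 34 components and regulators of autophagy, listed by symbol and not by their response. They were followed in MM.1S, an established human multiple myeloma cell line. One group received enzastaurin, a drug that blocks protein kinase C beta, and was taken after 3, 6 and 12 h. The other group was untreated, with the same 3 times. No dose is given in the sources used here, and the labels name no other agent or allele for either group. RNA was measured on 6 Affymetrix arrays, 1 per group and time, so the 3 times stand in for replicates. Of the 34 genes, 33 had at least 1 probe set annotated to that gene alone, among 11963 genes on the array with such a probe set. VMP1 was left out because its probe set is also annotated to MIR21. For each gene the probe set with the highest mean log2 intensity was used. A filter required a geometric mean intensity of at least 63.3, the level that 50 percent of probe sets reach, and 27 of the 33 genes passed it, among 6838 tested genes. ULK1, ULK2, ATG7, ATG14, ATG16L1 and GABARAPL1 lay below it and are given as values without a test.

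Autophagy is the route by which a cell wraps proteins or organelles in a double membrane, the autophagosome, and delivers them to the lysosome. A kinase complex of ULK1 or ULK2 with ATG13 and RB1CC1 (FIP200) starts the process, and a phosphatidylinositol 3-kinase complex around PIK3C3 (VPS34) and BECN1 marks the forming membrane with a lipid. WIPI proteins read that lipid and ATG2 proteins carry further lipid in, while a ubiquitin-like conjugation cascade attaches ATG8 proteins such as LC3 and GABARAP to the membrane. Cargo receptors such as SQSTM1 (p62) tie cargo to the ATG8 proteins, and TFEB and TFE3 switch on lysosome and autophagy genes. Plasma cells and myeloma cells make large amounts of immunoglobulin and are known to depend on autophagy beside the proteasome. Transcript levels do not measure autophagic flux, which was not analysed here.

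The promoters of 32 of the 34 genes were found in the RefSeq table (GRCh38.p14), and RB1CC1 and UVRAG were not. They were searched on both strands over the 250 bases before the annotated start for CACGTG, the E-box that TFEB, TFE3 and many other factors bind. TGATGNAA, a composite site of ATF4 and CHOP, was searched as well, and the letters of the 2 motifs do not contain each other. CACGTG was in 2 of the 32, ATG3 and ATG14, against 6.34 percent of 35116 promoters of the same length. The ATF4 and CHOP site was in none of the 32, against 3.14 percent of all. These letters are a description of the window and not of binding. The sequences of the 2 genes with an E-box are shown, with its letters in capitals, beside those of WIPI2, OPTN and SQSTM1, whose intensities are described below. Each runs 5′ to 3′ on the gene's strand. ATG3 lies at chr3:112561963-112562212 (minus strand), with CACGTG starting 18 bases before the start. ATG14 lies at chr14:55411831-55412080 (minus strand), with CACGTG starting 21 bases before it. The others lie at chr7:5189983-5190232, chr10:13099832-13100081 and chr5:179806143-179806392 (plus strand).
ATG3: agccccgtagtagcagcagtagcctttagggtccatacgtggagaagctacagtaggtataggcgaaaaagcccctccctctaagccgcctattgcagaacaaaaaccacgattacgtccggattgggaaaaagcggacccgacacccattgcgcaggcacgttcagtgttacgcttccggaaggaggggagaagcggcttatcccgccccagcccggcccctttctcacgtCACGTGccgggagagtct
ATG14: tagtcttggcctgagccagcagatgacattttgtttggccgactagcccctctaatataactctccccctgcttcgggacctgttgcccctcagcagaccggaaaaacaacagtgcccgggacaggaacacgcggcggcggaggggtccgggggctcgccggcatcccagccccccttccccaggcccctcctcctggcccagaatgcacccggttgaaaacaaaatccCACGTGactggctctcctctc
WIPI2: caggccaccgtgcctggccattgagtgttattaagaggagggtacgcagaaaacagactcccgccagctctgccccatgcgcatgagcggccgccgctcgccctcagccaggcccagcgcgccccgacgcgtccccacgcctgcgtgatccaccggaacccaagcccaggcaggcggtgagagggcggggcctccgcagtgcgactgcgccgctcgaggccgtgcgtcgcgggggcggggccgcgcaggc
OPTN: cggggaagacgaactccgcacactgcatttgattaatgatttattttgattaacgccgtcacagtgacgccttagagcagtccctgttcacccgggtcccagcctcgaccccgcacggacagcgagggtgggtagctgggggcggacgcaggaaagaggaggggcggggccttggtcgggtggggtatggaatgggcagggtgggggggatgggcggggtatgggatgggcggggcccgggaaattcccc
SQSTM1: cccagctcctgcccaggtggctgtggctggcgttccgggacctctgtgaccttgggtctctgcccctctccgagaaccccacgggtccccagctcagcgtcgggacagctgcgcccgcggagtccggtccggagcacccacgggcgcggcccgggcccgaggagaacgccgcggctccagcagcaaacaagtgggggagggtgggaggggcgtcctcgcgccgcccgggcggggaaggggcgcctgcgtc
ATG3, the enzyme that passes ATG8 proteins to lipid, had untreated intensities of 1723, 1278 and 1606 at 3, 6 and 12 h and enzastaurin intensities of 1483, 1559 and 1134. ATG14, the subunit that directs the lipid kinase to autophagy, had 93.0, 51.8 and 62.5 untreated and 39.6, 64.7 and 45.2 with enzastaurin. Both pairs of ranges overlap, and ATG14 lies below the filter. Neither gene with an E-box kept one direction at all 3 times. Most genes did not either, with 14.2 percent of all tested genes below 0 at all 3 times and 9.14 percent above.

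Median intensity ran from 62.2 to 67.6 over the arrays. The 6 ribosomal RNA probe sets had a mean log2 intensity of 5.51, 10.94 and 9.24 on the untreated arrays and of 9.72, 5.70 and 5.31 on the enzastaurin arrays, so their ratio changed sign between 3 h and the later times. The log2 ratio of 3' to 5' ACTB probe sets was 1.89, 1.16 and 1.60 for untreated arrays at 3, 6 and 12 h. With enzastaurin it was 0.57 and 0.86 at 6 h and 12 h, and at 3 h it was the highest of the 6 arrays. For GAPDH it was 0.28, 0.23 and 0.30 untreated and 0.23, -0.11 and 0.24 with enzastaurin, so only the 6 h array with enzastaurin stood apart. Of 10 plasma cell markers 9 passed the filter. Their median log2 ratios were -0.02, -0.60 and -0.64 at 3, 6 and 12 h, beside -0.04, 0.06 and -0.18 over all genes. SDC1, TNFRSF17 and IRF4 were lower in the fit of 6 h and 12 h described below. The TNFRSF17 slope also passed (-1.53, limma adjusted p = 4.66e-07). PRDM1, SLAMF7, MZB1 and CD38 lay below 0 at 6 h and 12 h without passing. JCHAIN and XBP1 went the other way at these times. JCHAIN had log2 ratios of -0.50, 0.39 and 0.87, with a slope that passed (limma adjusted p = 0.0163), and XBP1 had -0.10, 0.46 and 0.26. Neither the TNFRSF17 nor the JCHAIN slope passed once the medians of the tested genes were made equal, where 0 of all genes did. The summed intensity of all 10 was 19247 to 25514 in untreated and 19020 to 22327 in enzastaurin cells, and CD27 was the marker below the filter. None of the 7 measured T and NK cell markers or the 7 monocyte markers passed the filter, and their highest intensities were 53.1 and 61.4. The summed intensity was 188 to 208 untreated and 207 to 237 with enzastaurin for T and NK cells, and 123 to 208 and 134 to 179 for monocytes. The part of ribosomal RNA, 3' to 5' ratio and marker differences in the results below was not tested, beyond 1 fit with ribosomal RNA as a covariate.

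None of the 27 tested autophagy genes differed between enzastaurin and untreated cells past the threshold (adjusted p under 0.05). In limma, fitted over all 6838 genes with the time point as a block, 0 of 27 passed for the log2 ratio averaged over the 3 times, where 0.0585 percent of all genes did. At 6 h and 12 h alone 0 of 27 passed, where 3.61 percent of all genes did. For the slope of the ratio on log2 hours 0 of 27 passed, where 1.43 percent did. At an unadjusted p under 0.05 in limma there were 3, 6 and 2 of the 27, or 11.1, 22.2 and 7.41 percent, beside 5.41, 15.9 and 11.0 percent of all genes. The smallest adjusted p among the genes was 0.683 over 3 times, 0.0729 at 6 h and 12 h and 0.333 for the slope. A miss does not show that a gene was constant. The moderated SE ran from 0.19 to 0.39 over 3 times, and 18 of 27 unadjusted 95 percent intervals lay within 1 log2 unit of 0 on both sides. In RNA from whole cultures, fewer cells of a kind and less RNA per cell cannot be told apart.

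**Figure D1:**
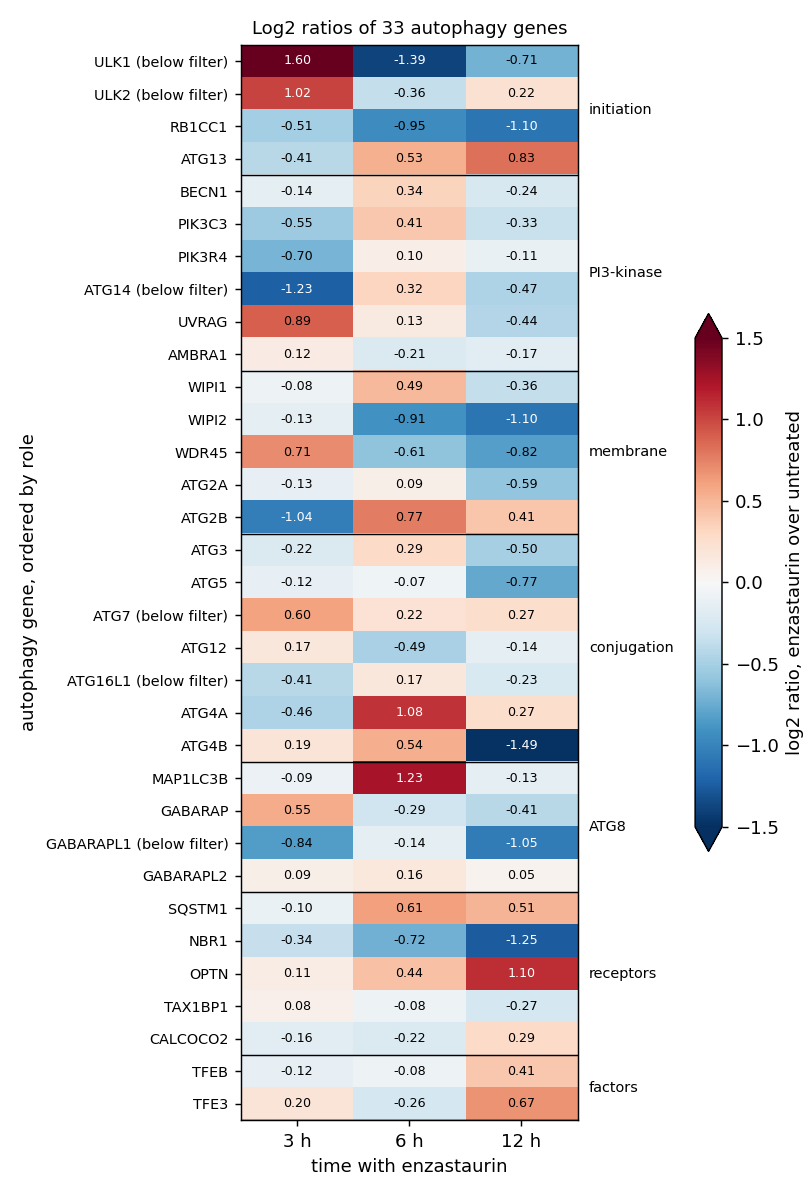
Log2 ratio of enzastaurin over untreated intensity (colour and printed value) for 33 autophagy genes in rows, grouped by role, at 3, 6 and 12 h in columns, 1 pair of arrays per column. Among the 27 genes above the filter, RB1CC1, WIPI2, NBR1 and ATG5 are below 0 at all 3 times and OPTN and GABARAPL2 above 0, and the others change sign.

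The median of the 27 genes lay near that of all genes at each time. Their median log2 ratio was -0.12, 0.10 and -0.24 at 3, 6 and 12 h, beside -0.04, 0.06 and -0.18 over the 6838. At 3 h 10 of 27 lay above 0, at 6 h 15 and at 12 h 9, or 37.0, 55.6 and 33.3 percent, beside 46.4, 54.4 and 38.9 percent of all genes. At 3 h none was at least 2-fold higher (1.89 percent of all genes) and ATG2B was at least 2-fold lower (2.65 percent of all). At 6 h MAP1LC3B and ATG4A were at least 2-fold higher (5.60 percent of all) and none was as much lower (3.22 percent). At 12 h OPTN was at least 2-fold higher (3.88 percent) and ATG4B, NBR1, RB1CC1 and WIPI2 at least 2-fold lower (10.4 percent). None of the 27 was 2-fold apart at more than 1 time. A pair of single arrays allows no test, so these are counts and not calls.

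**Figure D2:**
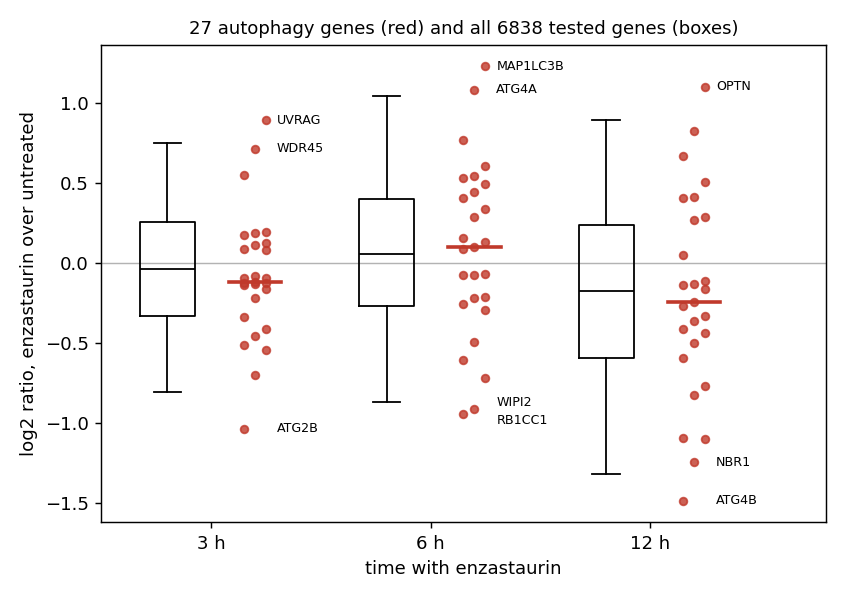
Log2 ratio of enzastaurin over untreated intensity (vertical axis) at each time (horizontal axis). Boxes give the median, quartiles and 5th to 95th percentiles of all 6838 tested genes, red points the 27 autophagy genes and red lines their median. The red medians of -0.12, 0.10 and -0.24 lie near the box medians at each time.

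In the initiation complex RB1CC1 lay lower at all 3 times and the brightest ATG13 probe set higher at the later times. RB1CC1, the scaffold that holds the ULK complex together, was at 513, 577 and 565 untreated and at 360, 299 and 263 with enzastaurin. All 3 enzastaurin arrays lay below all 3 untreated arrays. The log2 ratios were -0.51, -0.95 and -1.10, with a mean of -0.85 (SE 0.29, n = 3, limma adjusted p = 0.683). At 6 h and 12 h the mean was -1.02 (SE 0.32, n = 2, limma adjusted p = 0.0902), and the interval ran from -1.70 to -0.35 before adjustment. It passed with no filter, with equal medians of the tested genes and with 32 added to each intensity (limma adjusted p = 0.0465, 0.0420 and 0.0431). It did not pass under the other settings of this fit (limma adjusted p from 0.0728 to 0.443, highest with the second probe set). The second RB1CC1 probe set was lower at all 3 times too, with ratios of -1.13, -0.53 and -0.59. It carries the suffix x_at, which marks probes that can also match other transcripts.

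ATG13, the adaptor that links ULK kinases to RB1CC1, was at 176, 170 and 131 untreated and at 132, 246 and 232 with enzastaurin. It was thus lower at 3 h and higher at 6 h and 12 h, and its mean log2 ratio at the later times was 0.68 (SE 0.34, n = 2, limma adjusted p = 0.349). Its other probe sets had log2 ratios of 0.23, -0.16 and 0.06 and of 0.39, 0.52 and 0.05. Neither was lower at 3 h, and both were nearer to 0 at 12 h. The kinases ULK1 and ULK2 were dim, at 10.1 to 59.3 and 30.9 to 62.5 over the 6 arrays. ULK1 gave log2 ratios of 1.60, -1.39 and -0.71 and ULK2 1.02, -0.36 and 0.22. These intensities overlap those of the T, NK and monocyte markers, so the sizes of their ratios are not exact.

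In the lipid kinase complex no gene kept one direction. BECN1, the regulatory subunit bound by BCL2 proteins, was at 365 to 485 in untreated and 401 to 461 in enzastaurin cells. Its mean log2 ratio was -0.01 (SE 0.29, n = 3), and the interval ran from -0.66 to 0.63. PIK3C3, the catalytic subunit, had ratios of -0.55, 0.41 and -0.33, and PIK3R4, its membrane anchor, had -0.70, 0.10 and -0.11. UVRAG, which takes the complex to endosomes, had 0.89, 0.13 and -0.44. Untreated UVRAG went from 131 at 3 h over 193 to 271 at 12 h, whereas enzastaurin cells stayed between 200 and 243. AMBRA1, a BECN1 activator, stayed at 211 to 291 on all arrays.

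Of the membrane growth genes, WIPI2 and WDR45 lay lower at the later times. WIPI2, the lipid reader that recruits the conjugation complex, was at 852, 1077 and 902 untreated and at 779, 572 and 421 with enzastaurin. The 2 groups of arrays did not overlap, and the distance grew from a log2 ratio of -0.13 at 3 h to -0.91 and -1.10. Over 3 times the mean was -0.71 (SE 0.29, n = 3, limma adjusted p = 0.835). In the later pairs it was -1.01 (SE 0.30, n = 2, limma adjusted p = 0.0729), the smallest adjusted p of the 27 genes. WIPI2 passed under the same 3 settings as RB1CC1 (limma adjusted p = 0.0272, 0.0253 and 0.0283). It did not pass under the others (limma adjusted p from 0.0522 to 0.304, highest with the second probe set). A second WIPI2 probe set had -0.32, -0.55 and -0.83, and the remaining one had -0.33, 0.15 and 0.15. That last one was dim, with a geometric mean intensity of 75.8 beside 733 for the brightest.

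WDR45 (WIPI4), the partner of ATG2 proteins, was at 129, 305 and 290 untreated and at 212, 200 and 164 with enzastaurin. Its ratio turned from 0.71 at 3 h to -0.61 and -0.82, and the second probe set gave 0.78, -1.06 and -0.79. The slope was -0.77 per doubling of hours (limma adjusted p = 0.408). Most of that turn lay in the untreated arrays, which spanned 2.36-fold against 1.29-fold with enzastaurin. ATG2B, a lipid transfer protein, was likewise at 107, 44.6 and 67.5 untreated and at 52.1, 76.1 and 89.9 with enzastaurin. The ratios were -1.04, 0.77 and 0.41, and its intensities of 44.6 and 52.1 lie below the filter level of 63.3. The mean in the later pairs was 0.59 (SE 0.39, n = 2, limma adjusted p = 0.511). ATG2A, its paralogue, had -0.13, 0.09 and -0.59, and WIPI1 had -0.08, 0.49 and -0.36.

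**Figure D3:**
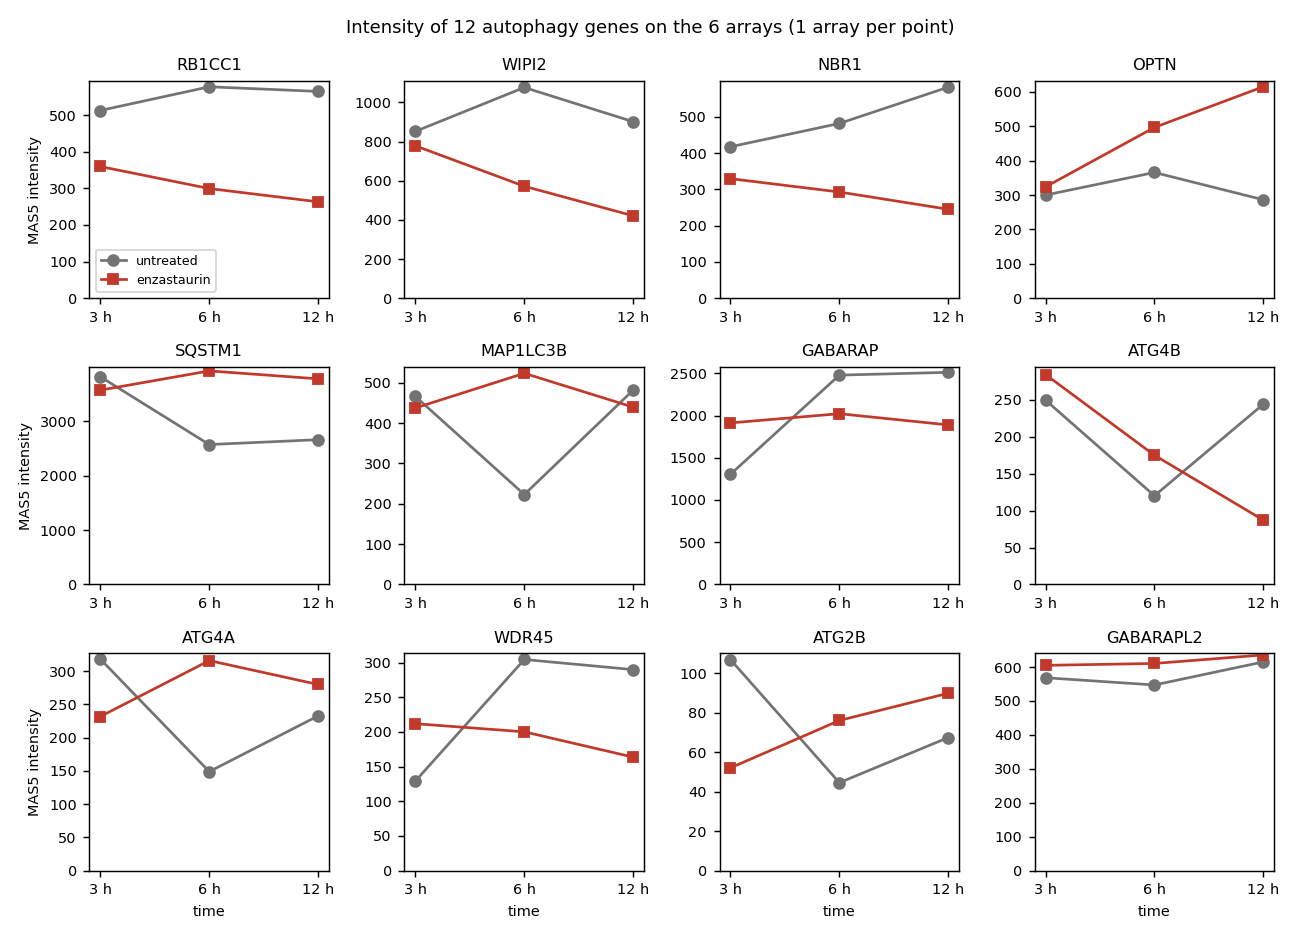
MAS5 intensity (vertical axis, linear from 0) of 12 autophagy genes in untreated cells (grey circles) and with enzastaurin (red squares) at 3, 6 and 12 h, 1 array per point and no error. The enzastaurin line lies below the untreated line throughout in RB1CC1, WIPI2 and NBR1 and above it in OPTN and GABARAPL2. GABARAP stays at 1889 to 2022 with enzastaurin while the untreated line goes from 1304 to 2512.

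Of the 5 tested conjugation and ATG4 genes 4 were lower at 12 h. Thus 20 percent lay above 0, beside 38.9 percent of all genes. ATG5, the acceptor of ATG12 in the first conjugate, was at 561, 522 and 653 untreated and at 516, 497 and 383 with enzastaurin. The groups did not overlap, yet the ratios of -0.12 and -0.07 at 3 h and 6 h were small and only 12 h stood apart at -0.77. The mean was -0.32 (SE 0.29, n = 3, limma adjusted p = 0.986), and a second ATG5 probe set had -0.02, 0.23 and -0.27. ATG12 depended on the probe set. The brightest gave -0.14 at 12 h, and the other 2 gave 0.85 and 1.23. ATG7, the activating enzyme of both cascades, was dim at 25.1 to 63.0, and ATG16L1, the membrane tether of the ATG12 and ATG5 conjugate, was at 44.1 to 60.1.

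The ATG4 proteases, which trim ATG8 proteins and release them from lipid, had their widest ratios at different times. ATG4B was at 249, 120 and 244 untreated and at 284, 175 and 87.0 with enzastaurin. Its ratios were 0.19, 0.54 and -1.49, and the value at 12 h was the lowest of the 27 genes at any time. A second bright probe set gave -1.71 at 12 h. Both carry the suffix x_at, which marks probes that can also match other transcripts, and a probe set without it, below the filter, gave -0.04. The slope was -0.84 per doubling of hours (limma adjusted p = 0.333), and the mean over 3 times was -0.25 (SE 0.39, n = 3). ATG4A was at 318, 149 and 233 untreated and at 232, 316 and 280 with enzastaurin. Its highest ratio, 1.08 at 6 h, came with the lowest intensity of the 6 arrays, in untreated cells at 6 h. The mean in the later pairs was 0.68 (SE 0.35, n = 2, limma adjusted p = 0.361).

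The ATG8 proteins form the coat that anchors cargo. MAP1LC3B, the usual marker protein of autophagosomes, was at 466, 223 and 482 untreated and at 438, 524 and 440 with enzastaurin. The enzastaurin arrays lay close together and the untreated 6 h array stood alone, which gave ratios of -0.09, 1.23 and -0.13. The second probe set had 0.57, 0.29 and 0.13 and so had no such step at 6 h. Over 3 times the mean was 0.34 (SE 0.34, n = 3, limma adjusted p = 0.988).

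GABARAP was at 1304, 2479 and 2512 untreated and at 1913, 2022 and 1889 with enzastaurin. Its ratio turned from 0.55 to -0.29 and -0.41, with a slope of -0.48 (limma adjusted p = 0.480). GABARAPL2, whose arrays lay close together, was at 547 to 615 untreated and 605 to 636 with enzastaurin. Its mean ratio was 0.10 (SE 0.27, n = 3), with an interval from -0.50 to 0.70. GABARAPL1 was dim, at 37.4 to 77.3 and 25.1 to 43.3, and its near copy GABARAPL3 shares a further probe set that was not used.

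Across the enzastaurin arrays MAP1LC3B, GABARAP, GABARAPL2 and SQSTM1 spanned 1.20-, 1.07-, 1.05- and 1.10-fold, and across the untreated arrays 2.16-, 1.93-, 1.12- and 1.48-fold. These 4 were set side by side after their values were seen. The median span of all tested genes was 1.49-fold with enzastaurin and 1.43-fold untreated. Among the 27 genes 14 spanned more in untreated cells (51.9 percent, beside 43.9 percent of all genes). The untreated array at 3 h or 6 h was the lowest of the 6 for 5 and 7 of the 27, beside 16.4 and 20.2 percent of all genes, and the enzastaurin array at 12 h for 8, beside 30.3 percent.

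Cargo receptors had ratios of both signs. SQSTM1 (p62), which binds ubiquitin and LC3, was at 3820, 2573 and 2662 untreated and at 3574, 3928 and 3782 with enzastaurin. The untreated array at 3 h lay within the range of the enzastaurin arrays, and the ratios were -0.10, 0.61 and 0.51. The mean of the later pairs was 0.56 (SE 0.21, n = 2, limma adjusted p = 0.169), or 1.47-fold. Equal medians of the tested genes and quantile normalization brought that below the threshold (adjusted p = 0.00744 and 0.0295 in limma). The other settings did not (adjusted p from 0.0966 to 0.882 in limma, highest with the median over probe sets). The second SQSTM1 probe set went the other way, with -0.47, -0.48 and -0.09. It was far dimmer, with a geometric mean intensity of 133 beside 3340.

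NBR1, a receptor built like p62, was at 417, 482 and 582 untreated and at 330, 293 and 245 with enzastaurin. The groups did not overlap, and the ratios were -0.34, -0.72 and -1.25. The mean was -0.77 (SE 0.31, n = 3, limma adjusted p = 0.829) over 3 times and -0.98 (SE 0.33, n = 2, limma adjusted p = 0.117) at 6 h and 12 h. The other NBR1 probe set had -0.29, -0.37 and 0.31, so the probe sets differed in sign at 12 h.

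OPTN, a receptor for bacteria and damaged mitochondria, was at 300, 366 and 286 untreated and at 324, 497 and 615 with enzastaurin. The arrays overlapped at 3 h, and the ratios were 0.11, 0.44 and 1.10. In the later pairs the mean was 0.77 (SE 0.33, n = 2, limma adjusted p = 0.241). The second OPTN probe set was also highest at 12 h, with 0.43, 0.02 and 0.80. TAX1BP1 and CALCOCO2 (NDP52), a related pair of ubiquitin-binding receptors, had ratios from -0.27 to 0.08 and from -0.22 to 0.29.

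The transcription factors TFEB and TFE3 were highest at 12 h with enzastaurin. TFEB was at 111, 142 and 134 untreated and at 102, 135 and 178 with enzastaurin, with ratios of -0.12, -0.08 and 0.41. TFE3 had 145, 277 and 187 untreated and 166, 231 and 298 with enzastaurin, with 0.20, -0.26 and 0.67. Its second probe set gave -1.18 at 12 h, the opposite direction. Neither passed the test (limma adjusted p = 0.999 for both over 3 times).

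**Figure D4:**
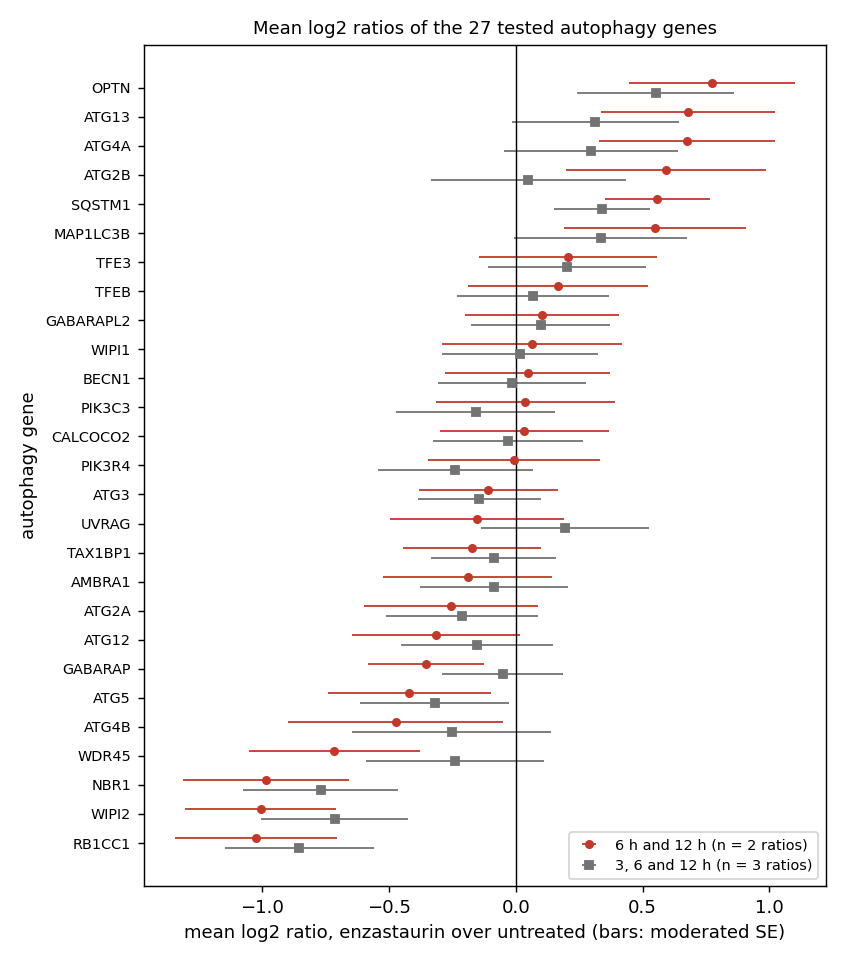
Mean log2 ratio of enzastaurin over untreated (horizontal axis) for the 27 tested autophagy genes (rows), at 6 h and 12 h (red circles, n = 2 ratios) and over 3 times (grey squares, n = 3 ratios), with moderated standard errors as bars. RB1CC1, WIPI2 and NBR1 are lowest at -1.02, -1.01 and -0.98 and OPTN highest at 0.77 in the later pairs.

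Few genes kept one direction at all 3 times. RB1CC1, WIPI2, NBR1 and ATG5 were below 0 at all 3 times (4 of 27, or 14.8 percent, beside 14.2 percent of all genes), and OPTN and GABARAPL2 above 0 (7.41 percent, beside 9.14 percent). The same 4 lower genes had enzastaurin arrays wholly below the untreated ones (14.8 percent, beside 7.18 percent of all genes), and none had them wholly above (3.47 percent of all). In both later pairs 9 genes were lower at both times (33.3 percent, beside 33.8 percent) and 6 higher (22.2 percent, beside 27.1 percent). At these later times ribosomal RNA intensity and the ACTB 3' to 5' ratio were lower with enzastaurin, as given above.

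Second probe sets were a further measure of the same genes. Of the 27 genes 16 had more than 1 kept probe set. In 11 of the 16 all of these had 1 sign of the mean ratio at 6 h and 12 h (68.8 percent, beside 60.1 percent of 2054 genes). ATG12, ATG13, SQSTM1, TFE3 and WIPI2 were the genes where they differed. RB1CC1, WDR45, OPTN and MAP1LC3B kept their direction in both probe sets, though the second of RB1CC1 carries the suffix x_at.

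**Figure D5:**
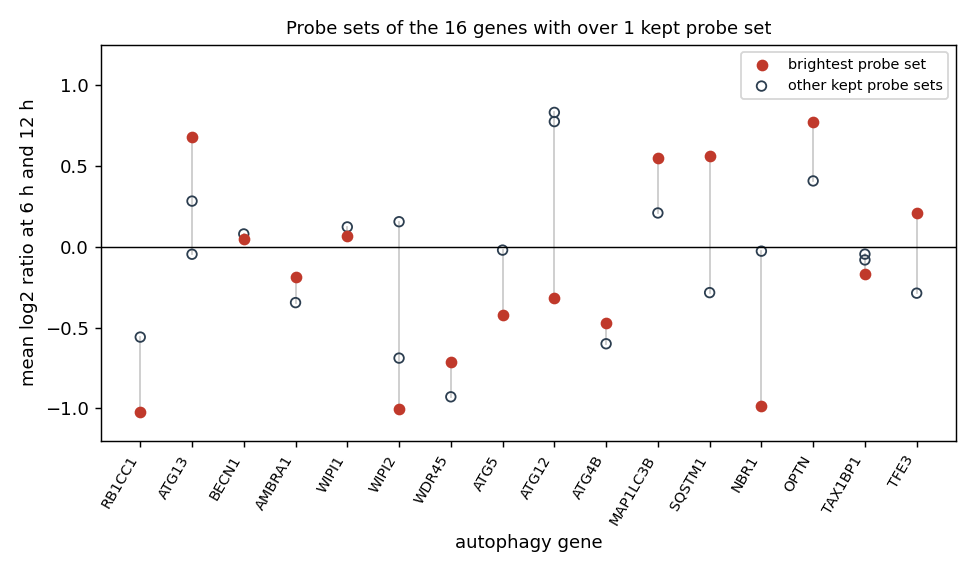
Mean log2 ratio at 6 h and 12 h (vertical axis) for every kept probe set of the 16 autophagy genes with more than 1 (horizontal axis). Red points are the brightest probe set, open circles the others, and grey lines join those of a gene. In ATG12, ATG13, SQSTM1, TFE3 and WIPI2 the points fall on both sides of 0.

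A list of 57 further autophagy genes, among them later steps of fusion with the lysosome and receptors of mitochondria, was measured the same way. Of these 43 had a probe set of their own and 38 were tested. At the adjusted threshold 0 of the 38 passed in limma over 3 times, at 6 h and 12 h or for the slope. Of all genes 0.0585, 3.61 and 1.43 percent passed in these fits. None of the 38 was at least 2-fold apart in 1 direction at both 6 h and 12 h, for which no share over all genes was computed. Their median log2 ratios were -0.04, 0.02 and 0.08 at 3, 6 and 12 h, beside -0.04, 0.06 and -0.18 over all genes.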

How the data were processed

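RNA abundance in MM.1S cells was read from 6 Affymetrix arrays (3 untreated, 3 enzastaurin). The values deposited by the authors are linear MAS5 intensity values, per the submitters' processing notes. No source used here gives the MAS5 version, its scaling target or detection calls. All 6 columns matched a sample, and the authors' scaling was kept. Of 22277 probe sets, 62 were controls, 19064 were annotated to 1 gene, 1043 to several and 2108 were unlisted.

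Intensities were floored at 1 and log2 transformed. limma 3.58.1 in R 4.3.3 (lmFit, eBayes with an intensity trend) was fitted to all 6838 genes with time as a block, to 6 arrays, to the 4 arrays of 6 h and 12 h, and for a slope on log2 hours. Residual degrees of freedom were 2, 1 and 1, and the prior had 9.26 and 16.9 in the first pair of fits and was infinite for the slope. P-values were adjusted by Benjamini-Hochberg over all genes, with a threshold of 0.05. The fits were tested on simulated data. No label says that arrays came from separate cultures, so the p-values describe only how these arrays differ among themselves, a spread that may be technical. The number of arrays limits the precision.

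The genes, the further list and the fit of the later pairs were chosen with earlier results of these data known. Every listed gene is accounted for, with array values for those at least 2-fold apart at any time and up to 3 others of each role.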

Additional observations from a re-analysis of the deposited data

How the results depend on the processing

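Over 3 times 0 autophagy genes passed in limma under all 14 alternatives, which were filter, scaling, added intensity, probe set choice, variance prior, no time block, each time left out and, added after seeing the data, ribosomal RNA as a covariate. For the slope 0 passed under each of the 9 that could be run, and leaving out a time could not be. Of all genes 98 passed for the slope in the main fit. With equal medians of the tested genes 0 of all genes did, with quantile normalization 13, and under the others 85 to 167. At 6 h and 12 h, where 0 passed, 2 did with no filter (RB1CC1 and WIPI2, limma adjusted p = 0.0465 and 0.0272) and 2 with 32 added to each intensity (the same genes, 0.0431 and 0.0283). With equal medians of the tested genes 3 passed (RB1CC1, WIPI2 and SQSTM1), and 1 with quantile normalization (SQSTM1). These settings also called 564, 438, 548 and 327 of all genes, against 247. Genes at least 2-fold apart numbered 1, 2 and 5 at 3, 6 and 12 h. At 3 h there were 4 of 33 with no filter (1578 of all genes) and 3 of 32 with the upper 70 percent kept (559 of all). The second probe set gave 2 (369 of all). There were 0 with quantile normalization (292 of all), 32 added (150) or the medians of all probe sets made equal (304). At 6 h there was 1 with 32 added (382 of all genes) or the median over probe sets (592 of all). At 12 h there were 3 with quantile normalization (937 of all genes), 2 with the second probe set and 1 with the median (904 of all). The 12 h median of -0.24 moved to -0.0497 with equal medians of the tested genes and -0.0562 with quantile normalization. The mean log2 ratio over 3 times turned in sign for many genes, none of them past the test. With equal medians of the tested genes this held for BECN1 (0.0490), GABARAP (0.0118) and CALCOCO2 (0.0320), with quantile normalization for BECN1 (0.0461), GABARAP (0.0194) and CALCOCO2 (0.0403), and with equal medians over all probe sets for WIPI1 (-0.0119). The second probe set turned BECN1 (0.0582), ATG12 (0.45), SQSTM1 (-0.35) and TFE3 (-0.24), and the median over probe sets turned BECN1 (0.0222), ATG12 (0.35), SQSTM1 (-0.00260) and TFE3 (-0.0185). The SQSTM1 ratio at 6 h and 12 h turned to -0.28 with the second probe set. With ribosomal RNA as a covariate WIPI1 (-0.0283), WDR45 (0.0205), ATG2B (-0.26) and GABARAP (0.11) turned. Leaving out the 3 h, 6 h or 12 h pair turned 4, 7 and 9 of the 27 genes, with lowest and highest values for BECN1 (-0.19 to 0.10), PIK3C3 (-0.44 to 0.0371), UVRAG (-0.15 to 0.51), WIPI1 (-0.22 to 0.21), WDR45 (-0.71 to 0.0546), ATG2B (-0.31 to 0.59), ATG3 (-0.36 to 0.0354), ATG12 (-0.31 to 0.0182), ATG4A (-0.10 to 0.68), ATG4B (-0.65 to 0.37), MAP1LC3B (-0.11 to 0.57), GABARAP (-0.35 to 0.13), TAX1BP1 (-0.17 to 0.00263), CALCOCO2 (-0.19 to 0.0651), TFEB (-0.10 to 0.17) and TFE3 (-0.0321 to 0.43). RB1CC1, ATG13, PIK3R4, AMBRA1, WIPI2, ATG2A, ATG5, GABARAPL2, NBR1 and OPTN kept their sign under all 14 alternatives. Changes of filter, of variance prior and of time block leave the mean ratio as it is, so they could not turn a sign. The probe set choices could not either for PIK3R4, ATG2A and GABARAPL2, which have no other kept probe set. Without the 3 h, 6 h or 12 h pair 0 autophagy genes passed, and 247, 0 and 0 of all genes did. The arrays were paired by time in the fits above, and without that pairing 0 autophagy genes and 2 of all genes passed over 3 times. Low signal limits ULK1, ULK2, ATG7, ATG14, ATG16L1 and GABARAPL1. The cause of these shifts was not tested.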

Other observations

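A few genes of the further list are given here because their values stood out, so they were chosen after the values were seen. Others on the list had ratios as wide, among them PRKAG1 (-1.34 at 6 h), TRIM5 (-1.94 at 3 h) and TOLLIP (1.52 at 3 h). Of all genes 1.89, 5.60 and 3.88 percent were at least 2-fold higher at 3, 6 and 12 h. At least 2-fold lower were 2.65, 3.22 and 10.4 percent. MITF, a further factor of the TFEB and TFE3 family, was at 169, 138 and 134 in untreated cells and at 124, 248 and 389 with enzastaurin. Its log2 ratios were -0.44, 0.85 and 1.54, and its mean at 6 h and 12 h was 1.20 (limma adjusted p = 0.0691). TFEC, the remaining factor of the family, was below the filter, and was highest in untreated cells at 12 h (37.6, beside 27.4 with enzastaurin).

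Among mitophagy genes, PINK1, the kinase that flags damaged mitochondria, had 185, 255 and 370 untreated and 178, 234 and 129 with enzastaurin. BNIP3L (NIX), a receptor on mitochondria, had 402, 385 and 380 untreated and 483, 328 and 161 with enzastaurin. Their log2 ratios at 12 h were -1.52 and -1.24, with adjusted p values of 0.290 and 0.310 in limma at 6 h and 12 h. RUBCN, an inhibitor of the lipid kinase complex, had 1376, 624 and 525 untreated and 1121, 1606 and 586 with enzastaurin. WDR45B (WIPI3) had 584, 320 and 558 untreated and 632, 770 and 794 with enzastaurin, so its untreated 6 h array was the lowest. The log2 ratios of RUBCN and WDR45B were -0.29 and 0.11 at 3 h, 1.36 and 1.27 at 6 h and 0.16 and 0.51 at 12 h. At 6 h and 12 h their adjusted p values in limma were 0.245 and 0.150.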
